A study of Mus musculus with 24 samples.

Results

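Activated CD8 T cells were set against Th17 cells, both grown from mouse T cells in culture and measured by bulk RNA sequencing. The libraries were chosen by column name. The 6 columns that begin Tc1, which the sample labels call CD8+ T cells, were compared with the 6 columns that begin Th17, which makes 12 of the 24 libraries in the series. The other 12 libraries are 6 of Th1 cells and 6 of regulatory T cells (Treg). The study asked how agonists of the kappa opioid receptor act on T cells, so each cell type has 1 library with the vehicle DMSO and 1 library with each of 5 agonists, which are called here by the prefix WMS and the codes 64, 75, 76, 83 and 200.

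All 12 libraries carry the genotype label WT. Per the labels the purified T cells received DMSO or 0.1 µM of an agonist for up to 5 days, and polarization followed a supplier's standard protocols, whose cytokines and antibodies are not named in the sources used here. RNA was purified on columns and libraries were enriched for poly(A) RNA. The suffixes of the compound names differ between titles, characteristics and protocol, so the code in the column name was used. The Th1 library with WMS-83 has a title that reads Th17 cells, but its column name and source name read Th1. It was kept with Th1. Column names also hold a number after the letters WT, whose meaning is not given. This WT number is 2 in all 6 CD8 libraries, 2 in the Th17 library with DMSO, 3 in the Th17 library with WMS-83 and 1 in the other 4 Th17 libraries. Cell type and WT number can therefore be told apart only through the 1 Th17 library that shares number 2 with the CD8 libraries. No label says whether libraries came from separate animals or cultures, and the 6 libraries of a cell type differ in treatment. The p-values below measure the spread between these libraries.

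CD8 T cells recognise peptides on MHC class I molecules and, once activated, kill their targets with perforin and granzymes and secrete interferon gamma. T-bet (Tbx21) and Eomes are the transcription factors at the centre of that program. Th17 cells are CD4 T cells that arise under TGF-beta and IL-6 and secrete IL-17A and IL-17F, cytokines of defence at mucosal surfaces and of autoimmune inflammation. Their chemokine receptor CCR6 guides them towards the chemokine CCL20. The aryl hydrocarbon receptor (Ahr), a sensor of environmental and tryptophan-derived ligands, is abundant in these cells.

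Promoters of 5 genes that the results turn on are shown with 1 short motif each, because each motif belongs to a class of factors named above or below. AGGTCA is the half-site bound by many nuclear receptors. GCGTG is the core of the element bound by the aryl hydrocarbon receptor. TGANTCA is the AP-1 site, and TTCNNNGAA is the gamma-activated site (GAS) bound by STAT dimers. Each sequence is the 250 bases before the transcription start, 5′ to 3′ on the gene's strand, from RefSeq on GRCm38.p6, with matches to the named motif on either strand in capitals. Il17a (chr1:20730655-20730904, plus strand) and Il17f (chr1:20784271-20784520, minus strand) are shown for the half-site, Cyp1a1 (chr9:57697363-57697612, plus strand) for GCGTG, Gzmb (chr14:56262335-56262584, minus strand) for the AP-1 site and Gbp5 (chr3:142496684-142496933, plus strand) for the GAS.
Il17a: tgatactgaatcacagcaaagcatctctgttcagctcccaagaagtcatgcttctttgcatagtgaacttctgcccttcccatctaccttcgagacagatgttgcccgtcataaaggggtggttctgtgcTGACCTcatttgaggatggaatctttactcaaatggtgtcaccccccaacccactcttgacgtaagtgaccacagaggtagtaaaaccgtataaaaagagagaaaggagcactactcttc
Il17f: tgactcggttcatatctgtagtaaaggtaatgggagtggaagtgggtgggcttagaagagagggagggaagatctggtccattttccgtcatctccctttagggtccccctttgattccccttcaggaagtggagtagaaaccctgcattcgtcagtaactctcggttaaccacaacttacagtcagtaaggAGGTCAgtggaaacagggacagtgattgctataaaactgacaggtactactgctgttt
Cyp1a1: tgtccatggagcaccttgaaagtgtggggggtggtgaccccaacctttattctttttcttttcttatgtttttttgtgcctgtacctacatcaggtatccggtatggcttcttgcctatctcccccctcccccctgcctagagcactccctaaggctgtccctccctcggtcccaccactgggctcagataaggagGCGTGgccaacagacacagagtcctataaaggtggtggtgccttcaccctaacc
Gzmb: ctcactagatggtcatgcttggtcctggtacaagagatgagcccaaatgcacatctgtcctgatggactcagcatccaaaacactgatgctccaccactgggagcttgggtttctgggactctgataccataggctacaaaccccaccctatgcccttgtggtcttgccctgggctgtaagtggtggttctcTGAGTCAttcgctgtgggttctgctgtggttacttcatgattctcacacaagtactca
Gbp5: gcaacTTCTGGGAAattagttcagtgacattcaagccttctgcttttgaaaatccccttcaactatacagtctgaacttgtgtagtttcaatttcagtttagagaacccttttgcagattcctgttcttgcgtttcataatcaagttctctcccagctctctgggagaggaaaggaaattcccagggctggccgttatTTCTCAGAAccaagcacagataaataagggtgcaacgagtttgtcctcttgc

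The half-site lay, as TGACCT on the other strand, at positions -120 to -115 from the start in Il17a and, as AGGTCA, at -58 to -53 in Il17f. Il17a also held an AP-1 match, TGAATCA at -244 to -238, left in lower case. The AP-1 site of Gzmb lay at -58 to -52, and GCGTG of Cyp1a1 at -54 to -50. Gbp5 held a GAS at -245 to -237 and another at -52 to -44. These short motifs are common. AGGTCA was found in 14% of 32851 RefSeq promoter windows of this length, GCGTG in 28.2%, TGANTCA in 6.75% and TTCNNNGAA in 7.02%. Promoters were matched by symbol for 9939 of the 14105 genes tested below. The shares differ in the promoters of genes tested, which are the background for the sets below. TGANTCA was in 4.45% of these, in 10.1% of promoters of genes higher in CD8 past 2-fold (defined below) and in 6.79% of those of genes higher in Th17 past 2-fold. TTCNNNGAA was in 5.89%, 8.29% and 4.9% in the same order, the half-site in 10.8%, 12.7% and 12.6%, and GCGTG in 44.3%, 30.8% and 41.9%. A T-box half-site, TCACACC, was searched as well, and its shares were 2.93%, 4.14% and 4.11%, nearly the same on both sides. These shares are descriptions and carry no test. A match is a string of letters in a window and says nothing of binding.

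The CD8 libraries held between 16842562 and 20937496 counts and the Th17 libraries between 16271300 and 21608525. Values are given as CPM, counts relative to the library total after scaling by TMM, with the SD over 6 libraries. On the first principal component, which held 84.6% of the variance, the 6 CD8 libraries lay apart from the 6 Th17 libraries. The second held 4.71% and placed the Th17 libraries with WMS-75 and WMS-76 at opposite ends. No pair of libraries within a cell type agreed within sampling noise (the smallest chi-square per gene was 4.21). Ribosomal protein genes took 10.4% to 11.2% of counts in CD8 and 9.65% to 12.8% in Th17, and mitochondrially encoded genes took 0.354% to 0.759% and 0.215% to 0.553%.

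The model was edgeR's quasi-likelihood test with terms for cell type and compound, and p-values were adjusted over the 14105 genes tested. Differences are log2 fold changes of CD8 minus Th17, ± standard error, so that a positive value is higher in CD8. A gene is called where its adjusted p is under 0.05, and past 2-fold where a test against a 2-fold difference also gives an adjusted p under 0.05. Called were 7931 genes (56.2%), of which 3966 (28.1%) were higher in CD8 and 3965 (28.1%) higher in Th17. These shares are the background for the counts in every gene list below, and a list near them says little of its own. Past 2-fold were 784 genes higher in CD8 (5.56%) and 662 higher in Th17 (4.69%). The 6 libraries of one cell type did not overlap those of the other for 4995 genes (35.4%). Most of the called genes differed modestly: 5730 had a difference smaller than 1 on the log2 scale, while 243 were more than 8-fold higher in CD8 and 208 more than 8-fold higher in Th17. The median over all genes tested was -0.003. With the WT number in place of the compound in the model, which rests the difference on the lone Th17 library with number 2, 2269 genes were called higher in CD8 and 2289 higher in Th17.

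**Figure D1:**
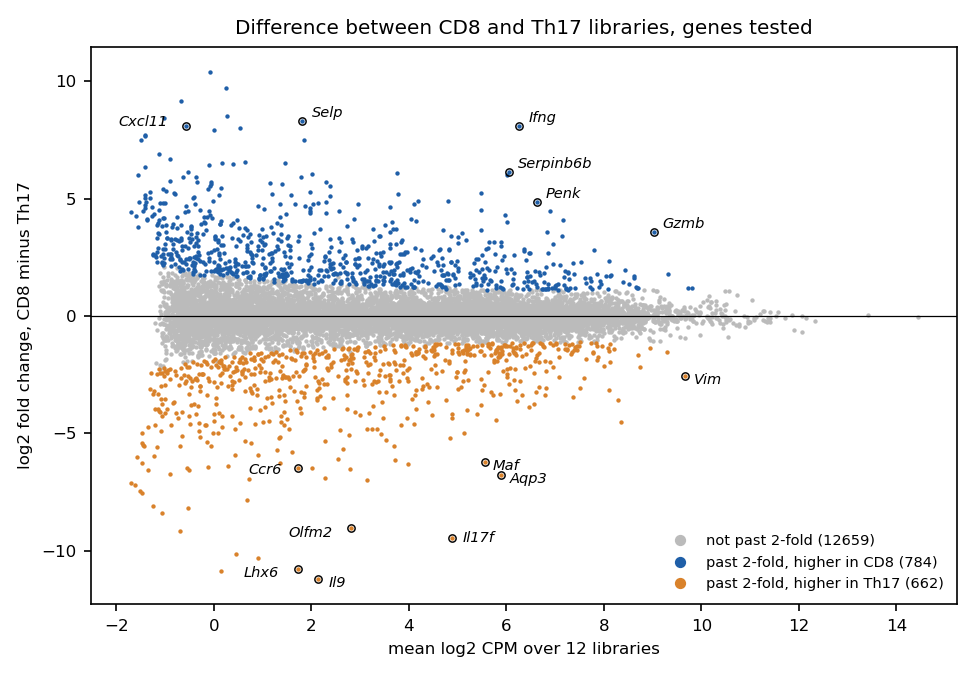
Log2 fold change of CD8 minus Th17 (vertical axis) against the mean log2 CPM over 12 libraries (horizontal axis), 1 point per gene tested. The 784 blue genes were higher in CD8 past 2-fold and the 662 orange genes higher in Th17; Ifng, Selp and Gzmb stand high among the first, and Il9, Lhx6 and Il17f low among the second.

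The coreceptor genes separated the libraries in the direction of their labels, but neither coreceptor was absent from the other cell type. Cd8a (ENSMUSG00000053977, chromosome 6, 71350411 to 71356157 as the file gives it) encodes the alpha chain of the CD8 coreceptor. Its CPM was 339, 369 and 385 (lowest, median and highest) in CD8 and 32.1, 84.9 and 105 in Th17. The 2 groups did not overlap, and the lowest Th17 value was that of the library with WMS-83. The difference was 2.27 ± 0.23 (edgeR, adjusted p = 3.92e-04). Cd8b1, the beta chain, stood at 228 ± 13.2 CPM in CD8 and 36.6 ± 9.86 in Th17 (2.68 ± 0.12, adjusted p = 1.84e-07). Its lowest Th17 value, 20.6 CPM, came from the same library. In the other CD4-lineage libraries Cd8a stood at 13.9 CPM in Th1 and 7.27 in Treg, against 84 in Th17 and 389 in CD8, all on the scale of the 24-library model.

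Cd4 (chromosome 6, 124841655 to 124865184) ran from 407 to 482 CPM in Th17 and from 158 to 185 in CD8, again without overlap (-1.34 ± 0.05, adjusted p = 7.42e-15). Zbtb7b, the transcription factor ThPOK that commits thymocytes to the CD4 lineage, was higher in Th17 by a smaller step (84.3 against 137 CPM, -0.70 ± 0.05). Cd40lg, the helper ligand CD40L, differed by -1.01 ± 0.08. Runx3, which silences Cd4 in CD8 cells, was higher in CD8 (0.80 ± 0.05), while its relative Runx1 was far lower there (24.3 ± 1.74 against 180 ± 12.5 CPM, -2.89 ± 0.06). In bulk libraries a smaller share of cells and less RNA per cell cannot be told apart, so the Cd4 reads of the CD8 libraries and the Cd8a reads of the Th17 libraries cannot be assigned to cells. The chains of the T cell receptor complex were level: Cd3e (0.09 ± 0.05), Cd3d (-0.04 ± 0.06), Cd3g (0.05 ± 0.06) and Cd247 (-0.10 ± 0.06) were not called, and their libraries overlapped. Without the DMSO libraries Cd247 was called higher in Th17 (-0.16, edgeR, adjusted p = 0.0281).

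Markers of other cells were sparse. The defining markers Ms4a1, Lyz2, Csf1r and Ncr1 averaged under 1 CPM in both cell types, and S100a9 had no count in any of the 12 libraries. The summed CPM of 10 B cell markers was 74.7 to 81.9 in CD8 and 44.1 to 57.9 in Th17, mostly Ighm, and that of 16 myeloid and dendritic markers 138 to 155 and 57.9 to 77.3, mostly Cd74. A sum of 12 NK and gamma delta markers reached 93 to 104 in CD8, mostly Eomes, which CD8 T cells also express. In Th17 the sum was 19.6 to 31.3, with Eomes a small part and the gamma delta genes Trdc and Trgc2 larger ones. Trdc, the constant gene of the delta chain, was higher in Th17 (7.54 against 10.4 CPM, -0.46), as was Trgc2 (1.82 against 5.3, -1.50). Erythroid markers summed to at most 1.21 CPM in CD8 and 1.66 in Th17, and stromal markers overlapped (16 to 19.3 against 14.1 to 18). The part that other cells play in any difference below was not tested.

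**Figure D2:**
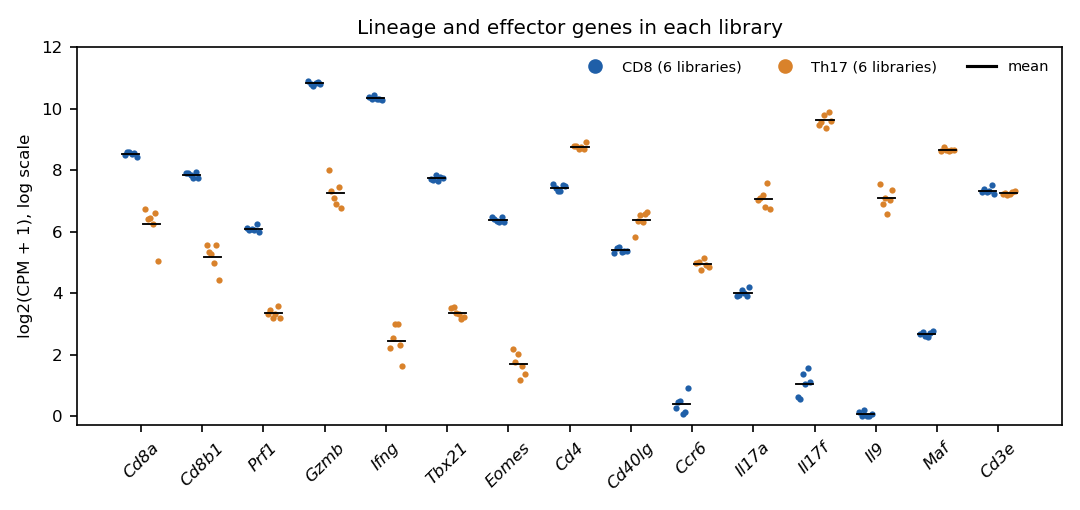
Expression of 15 lineage and effector genes on a log2(CPM + 1) scale (vertical axis), 1 point per library, with a black bar at the mean of the 6 CD8 (blue) or 6 Th17 (orange) libraries. Groups are apart for every gene shown except Cd3e, and Cd8a, Cd8b1 and Cd4 are well above 0 in both cell types.

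Of 22 cytotoxic granule genes tested, 15 were higher in CD8 and 5 higher in Th17, with 10 and 2 past 2-fold and a median difference of 1.13. Gzmb, granzyme B, the serine protease that triggers apoptosis in target cells, was the most abundant of them in CD8 (chromosome 14, 56496295 to 56499717). Its CPM was 1694, 1804 and 1903 in CD8 and 107, 147 and 257 in Th17, without overlap, the DMSO library being the highest of the Th17 group. The difference was 3.57 ± 0.17 (adjusted p = 1.41e-06). Prf1 (chromosome 10, 61133612 to 61140459) encodes perforin, which forms the pores through which granzymes enter. It stood at 62.1, 66.2 and 75 CPM in CD8 and 8.03, 8.95 and 11 in Th17 (2.88 ± 0.07, adjusted p = 1.14e-17).

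The widest gaps in this group belonged to protease inhibitors. Serpinb9, the inhibitor that shields killer cells from their own granzyme B, was at 502 to 545 CPM in CD8 and 5.51 to 10.7 in Th17 (6.0 ± 0.13). Its neighbour on chromosome 13, Serpinb6b, was at 539 to 589 CPM against 5.45 to 10.8 (6.14 ± 0.15). Both belong to families of close relatives, and how the authors' counting treated shared reads is not given in the sources used here. Nkg7, a granule membrane protein (3.58 ± 0.08), and Cst7, the protease inhibitor cystatin F (2.08 ± 0.06), were also past 2-fold.

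Not every granule gene followed. Gzma, granzyme A, was scarce in CD8 (0.234 to 1.53 CPM) and higher in Th17 (4.63 to 13.5 CPM; -3.42 ± 0.23, adjusted p = 2.07e-10). Gzmc was higher in Th17 by -0.96 ± 0.09, and Stx11, a syntaxin needed for granule release, by -1.76 ± 0.06. Stxbp2, its binding partner, was level at 78.7 ± 5.22 and 78.9 ± 5.58 CPM (0.00 ± 0.06, adjusted p = 0.982). Fasl, the death ligand, was higher in CD8 by 1.14 ± 0.27, and its 2 groups did not overlap (13.2 to 18.7 against 2.85 to 10.3 CPM).

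Type 1 effector genes were mostly higher in CD8: 14 of 18, with 3 higher in Th17 and a median of 1.57. Ifng, interferon gamma (chromosome 10, 118276951 to 118281797), had 1243, 1274 and 1393 CPM in CD8 and 2.11, 4.38 and 7.02 in Th17. The lowest CD8 library lay far above the highest Th17 library, and the difference was 8.09 ± 0.22 (adjusted p = 8.21e-08). The transcription factors followed the same direction. Tbx21 was at 212 ± 10.2 CPM against 9.24 ± 1.08 (4.52 ± 0.07), and Eomes at 82.7 ± 4.95 against 2.32 ± 0.861 (5.18 ± 0.13). Il12rb2, the IL-12 receptor chain that carries its signal, was at 274 ± 12.8 against 7.39 ± 2.08 CPM (5.23 ± 0.12), and Stat4, the transcription factor it activates, differed by 3.14 ± 0.10. Zeb2 (2.16 ± 0.08) and Prdm1, which encodes Blimp-1 (2.40 ± 0.16), were past 2-fold as well. Higher in Th17 were Klf2, a regulator of lymphocyte egress (4.86 against 31.2 CPM, -2.67 ± 0.10), Id2 (-0.57 ± 0.06) and Il2rb (-0.31 ± 0.05). Cxcr3, a type 1 homing receptor, was not called (-0.18 ± 0.08, adjusted p = 0.0564); it was called lower in CD8 without WMS-200 (-0.22, adjusted p = 0.0445) and with the gene length trend removed (-0.21, adjusted p = 0.0212).

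The Th17 list ran the other way, with 18 of 22 genes higher in Th17, 14 of them past 2-fold, and a median of -2.45. Il17f (chromosome 1, 20847370 to 20860841) was at 654, 763 and 954 CPM in Th17 and at 0.473, 1.11 and 1.96 in CD8, a difference of -9.45 ± 0.14 (adjusted p = 3.86e-15). Il17a (chromosome 1, 20801129 to 20804720) was at 106, 133 and 192 CPM in Th17 and at 13.9, 14.8 and 17.5 in CD8. Both cytokine genes were without overlap, but Il17a was detected in every CD8 library and its difference was smaller (-3.15 ± 0.14, adjusted p = 7.55e-08). Per kilobase of the gene length in the file, Th17 libraries held 390 CPM of Il17f and 116 of Il17a, and CD8 libraries 0.56 and 13. The promoters of both genes are among those printed above.

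Ccr6 (chromosome 17, 8454875 to 8475973) was at 26, 30 and 34.6 CPM in Th17 and at 0.053, 0.296 and 0.876 in CD8 (-6.48 ± 0.27, adjusted p = 1.36e-09). Its ligand gene Ccl20 was likewise higher in Th17 (50.3 ± 6.42 against 0.41 ± 0.213 CPM, -6.91 ± 0.15). Rora, a nuclear receptor gene, differed by -3.34 ± 0.05. Maf, a transcription factor that drives Il10 and Il21, had the smallest p of all genes tested: 389 to 432 CPM in Th17 and 4.94 to 5.78 in CD8 (-6.22 ± 0.06, adjusted p = 2.94e-23). Il21 (-2.11 ± 0.06), Il22 (-3.13 ± 0.18) and Il10 (-3.57 ± 0.27) were all past 2-fold. Stat3, which transmits IL-6 and IL-23 signals, was higher in Th17 by less (-0.89 ± 0.05). The factors Irf4 (-0.21 ± 0.05) and Batf (-0.36 ± 0.07), used by many activated T cells, were nearly level. Both lost their call with the WT number in the model (adjusted p = 0.201 and 0.0934).

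Exceptions in the Th17 list were 4 genes higher in CD8. Csf2, which encodes GM-CSF, was at 12.7 to 20.8 CPM in CD8 and 0.586 to 1.88 in Th17 (3.70 ± 0.14). Il23r, the IL-23 receptor, was low in both (4.85 ± 0.261 against 2.42 ± 0.622 CPM; 1.03 ± 0.18); with the WT number in the model it was 0.65 (adjusted p = 0.16). Hif1a, the hypoxia factor, was at 571 to 632 against 229 to 307 CPM (1.22 ± 0.05), and Nfkbiz differed by 0.86 ± 0.08.

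Among 22 cytokine genes tested, 5 were higher in CD8 and 14 higher in Th17, with a median of -0.89; 2 of those higher in CD8, Ifng and Csf2, and 4 of those higher in Th17, Il17a, Il17f, Il21 and Il22, are described above. Il9, a growth factor for mast cells and T cells, had the most extreme difference of any named gene. It was at 94.8, 132 and 187 CPM in Th17, highest with DMSO, while the 6 CD8 libraries held 6 counts between them (0 to 0.155 CPM; -11.19 ± 0.16, adjusted p = 9.25e-21). Per kilobase, Il9 in Th17 libraries (256 CPM) lay between Il17f and Il17a. Csf1, the macrophage growth factor (-2.77 ± 0.14), and Lta, lymphotoxin alpha (-1.43 ± 0.06), were past 2-fold in the same direction. Il3 was at 17.5 ± 3.24 CPM in CD8 and 0.481 ± 0.285 in Th17 (5.15 ± 0.20). Tnf was somewhat higher in Th17 (86.3 against 125 CPM, -0.52 ± 0.06); with the WT number in the model this was -0.23 (adjusted p = 0.0919). Il2, the T cell growth factor, was at 63.5 to 84.8 CPM in CD8 and at 83.5 to 183 in Th17, with the lowest Th17 value in the DMSO library. Its call (-0.87 ± 0.22, adjusted p = 0.0189) was lost without the WMS-75 libraries (-0.89, adjusted p = 0.0525) and with the WT number (-0.18, adjusted p = 0.512). The Il2 call was also lost with no filter on low counts (-0.88, edgeR, adjusted p = 0.0506) and without WMS-75 and WMS-76 together (-0.74, adjusted p = 0.134). Il4 (-0.38 ± 0.42) and Il13 (0.39 ± 0.17), cytokines of Th2 cells, were not called; Il13 was called without WMS-64 (0.55, adjusted p = 0.0117) and with no filter on low counts (0.38, adjusted p = 0.0123).

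Chemokine genes were on the CD8 side, with 8 of 11 higher there and a median of 3.08, and Ccl20 alone was called higher in Th17. Xcl1, which attracts cross-presenting dendritic cells, was at 306, 366 and 414 CPM in CD8 and at 30.7, 41.6 and 64.8 in Th17 (3.08 ± 0.15, adjusted p = 1.61e-06). Ccl3 (264 ± 16.9 against 16.6 ± 5.11 CPM, 4.01 ± 0.20) and Ccl4 (2.37 ± 0.13), which attract T cells and monocytes, and Ccl5 (5.11 ± 0.13) were all past 2-fold. The interferon-induced Cxcl10 was at 23.9 ± 2.94 against 0.846 ± 0.519 CPM (4.83 ± 0.23), and Cxcl11 had 468 counts in the CD8 libraries and 1 in the Th17 libraries. Ccl22 was not called (0.11 ± 0.23, adjusted p = 0.715).

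Chemokine receptors split by type, with 4 of 13 higher in CD8 and 8 higher in Th17, beside 28.1% of all genes tested each way. Ccr2, an inflammatory receptor, was higher in CD8 (2.78 ± 0.15). Beside Ccr6, Th17 libraries held more Ccr4 (18.4 ± 0.745 against 186 ± 11.8 CPM, -3.33 ± 0.06) and Ccr8 (-3.36 ± 0.09), both receptors of skin-homing and regulatory T cells. The same held for Cxcr5 (-3.02 ± 0.09), which leads cells into B cell follicles, and Cxcr4 (-3.0 ± 0.08). Ccr7, the lymph node receptor, was abundant in both (880 to 1068 against 979 to 1316 CPM) and the groups overlapped. Its small difference (-0.19 ± 0.06, adjusted p = 0.0112) turned to 0.01 with the WT number in the model (adjusted p = 0.942).

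Of 28 cytokine receptor genes, 15 were higher in CD8 and 10 higher in Th17. Il10ra (3.54 ± 0.08), Il15ra (2.99 ± 0.11) and Il1rl1, the IL-33 receptor (24.6 ± 1.62 against 1.72 ± 0.456 CPM, 3.83 ± 0.14), were higher in CD8, as was Il7r (1.51 ± 0.06). Higher in Th17 were Il6ra (13.3 ± 1.15 against 90.8 ± 5.07 CPM, -2.78 ± 0.07) and Ifngr2, the signalling chain of the interferon gamma receptor (11.4 ± 1.4 against 57.6 ± 4.08 CPM, -2.34 ± 0.09). Ifngr1, the chain that binds the ligand, went the other way by a small step (0.51 ± 0.06). Il2ra, the high-affinity IL-2 receptor chain, was among the most abundant in both (1788 ± 74.1 and 1532 ± 79.2 CPM; 0.22 ± 0.05). It was not called with 24 libraries in the model (adjusted p = 0.132) or with the WT number (0.0632).

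TGF-beta pathway genes were higher in Th17 for 21 of 28 tested, 11 of them past 2-fold, and higher in CD8 for 5, with a median of -0.73. Tgfbr1, the type I receptor (chromosome 4, 47353222 to 47414931), was at 313, 349 and 384 CPM in Th17 and at 24.4, 25.7 and 27.2 in CD8 (-3.76 ± 0.06, adjusted p = 9.52e-21). The type II receptor Tgfbr2 differed by less (-0.93 ± 0.05). Inhibitors of the pathway were also higher in Th17: Smad7 (49.4 ± 2.2 against 188 ± 12.6 CPM, -1.93 ± 0.05), Skil (-1.73 ± 0.06), Ski (-1.41 ± 0.05) and the scarce Smad6 (-3.21 ± 0.44). The same held for Smad3, a transcription factor of the pathway (-1.31 ± 0.06). Itgae, the integrin CD103 that TGF-beta is known to induce, was at 38.4 to 71.5 CPM in Th17 and 5.26 to 9.46 in CD8 (-2.98 ± 0.10). Only 1 gene of this list was past 2-fold in the CD8 direction, the ligand gene Tgfb2 (8.27 ± 0.943 against 0.729 ± 0.214 CPM, 3.51 ± 0.20).

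Aryl hydrocarbon receptor genes had a median of -3.14, with 7 of 9 higher in Th17. The receptor gene Ahr was at 161 to 177 CPM in Th17 and 10.4 to 13.5 in CD8 (-3.79 ± 0.06). Cyp1a1 (chromosome 9, 57595211 to 57611107), the cytochrome P450 that serves as the classic readout of the receptor, was at 37.8, 45.5 and 58.8 CPM in Th17 and at 0.316, 0.691 and 0.981 in CD8 (-6.10 ± 0.13, adjusted p = 1.59e-18). Cyp1b1 (-5.08 ± 0.15), the repressor gene Ahrr (-3.61 ± 0.19) and Tiparp (-2.90 ± 0.09) followed. Nqo1, an oxidoreductase that the antioxidant factor NRF2 also controls, was higher in CD8 (4.88 ± 0.927 against 2.06 ± 0.541 CPM, 1.26 ± 0.21). With the WT number in the model its adjusted p was 0.123.

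Interferon response genes pointed one way: 29 of 37 tested were higher in CD8, 22 past 2-fold, and none was called higher in Th17, with a median of 1.56. Gbp2, a guanylate-binding protein of cell-autonomous defence, was at 423, 464 and 485 CPM in CD8 and at 35, 45.7 and 48 in Th17 (3.41 ± 0.07, adjusted p = 7.82e-18). Gbp5, whose promoter with 2 GAS motifs is printed above, was at 203 to 240 against 22.5 to 34.7 CPM (2.87 ± 0.07). Also past 2-fold higher in CD8 were Usp18 (30.4 ± 2.06 against 1.78 ± 0.598 CPM, 4.12 ± 0.15), Mx1 (3.88 ± 0.23) and Ifitm3 (4.40 ± 0.20). The transcription factor Irf1 was at 118 to 137 CPM in CD8 and 31 to 33.5 in Th17 (1.99 ± 0.05), and the GTPase Iigp1 differed by 4.76 ± 0.16. Stat2, a transcription factor of type I interferon signalling, was not called (-0.16 ± 0.08, adjusted p = 0.0895). It was called higher in Th17 without WMS-76 (-0.25, adjusted p = 0.00327) and without WMS-75 and WMS-76 together (-0.21, adjusted p = 0.0234).

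MHC class I and antigen processing genes were higher in CD8 for 21 of 23 and lower for none, but by smaller steps, with a median of 0.67 and 6 past 2-fold. Psmb9, a subunit of the immunoproteasome, was at 123 to 142 CPM in CD8 and 41.9 to 53.9 in Th17 (1.44 ± 0.06). Nlrc5, the transactivator of class I genes (1.02 ± 0.08), the peptide transporter Tap1 (0.61 ± 0.05), B2m (0.60 ± 0.07) and the class I heavy chain H2-K1 (0.53 ± 0.06) were called without passing 2-fold. Class I heavy chain genes are near-identical copies, so their values are uncertain where reads could be shared. Pdia3, a general chaperone of the same loading complex, was level (491 ± 26.2 and 496 ± 50 CPM, -0.01 ± 0.05).

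**Figure D3:**
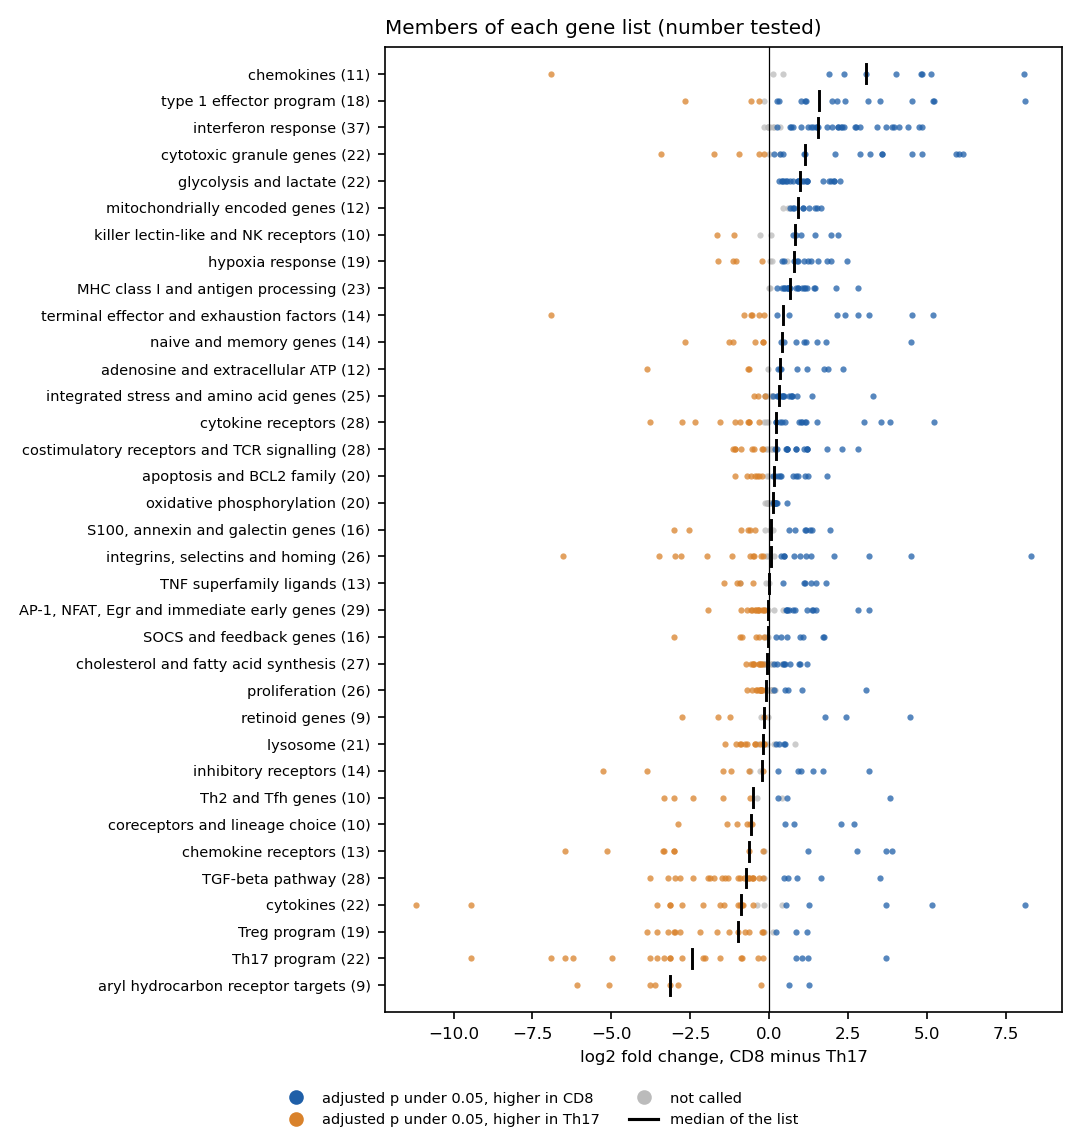
Log2 fold changes of CD8 minus Th17 (horizontal axis) for the tested members of 35 gene lists, ordered by their median (black bar), 1 point per gene, with the number tested in brackets. Of the lists drawn, chemokine, type 1 effector and interferon lists have the highest medians, 3.08, 1.57 and 1.56, and the aryl hydrocarbon receptor and Th17 lists the lowest, -3.14 and -2.45; genes can be in more than 1 list. Marker lists, sex-linked transcripts and the opioid list (2 genes tested, median 2.84) are not drawn.

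Inhibitory receptors were divided evenly, with 6 of 14 higher on each side. Tigit was at 37.7 to 45.3 CPM in CD8 and 3.83 to 5.51 in Th17 (3.16 ± 0.09), while Lag3 (0.92 ± 0.05) and the scarce Havcr2, which encodes TIM-3 (1.39 ± 0.17), were higher in CD8 by less. Pdcd1, which encodes PD-1, was higher in Th17 (105 ± 8.39 against 289 ± 33.7 CPM, -1.46 ± 0.06). So were Cd101 (1.82 ± 0.258 against 70.7 ± 1.87 CPM, -5.27 ± 0.09) and Nt5e, the ectoenzyme CD73 that makes adenosine from AMP (18.6 to 25 against 312 to 364 CPM, -3.87 ± 0.07). Adora2a, a receptor of adenosine (1.87 ± 0.07), and P2rx7, a receptor of extracellular ATP (2.32 ± 0.07), were higher in CD8. Ctla4 overlapped between groups (69.4 to 79.8 against 63.9 to 99.3 CPM). Its call (-0.19 ± 0.07, adjusted p = 0.0297) was lost without WMS-200, WMS-64, WMS-75 or WMS-76 in turn, with adjusted p from 0.0625 to 0.0945. It was also lost with the WT number (adjusted p = 0.195), with 24 libraries in the model (0.124) and without WMS-75 and WMS-76 together (0.294).

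Among 28 costimulatory receptor and T cell receptor signalling genes, 15 were higher in CD8 and 8 higher in Th17, with a median of 0.21. Tnfrsf9, the costimulatory receptor 4-1BB, was at 556, 588 and 634 CPM in CD8 and at 71, 81.5 and 104 in Th17 (2.80 ± 0.06, adjusted p = 1.30e-18), and Cd27 differed by 1.83 ± 0.06. Among TNF family ligands, 6 of 13 were higher in CD8 and 4 higher in Th17 (median -0.01), with Tnfsf8 (1.49 ± 0.05), Tnfsf4, which encodes OX40L (1.31 ± 0.05), and Cd70 (1.80 ± 0.15) past 2-fold in CD8 and 1 past 2-fold in Th17. The phospholipase gene Plcg1 (-1.13 ± 0.05) and the adaptor gene Lat (-0.90 ± 0.05) were higher in Th17. Zap70, the kinase that docks on the receptor, was nearly level (-0.20 ± 0.05; adjusted p = 0.4 with the WT number).

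Homing and adhesion genes held some of the widest gaps in both directions, with 11 of 26 called on each side. Selp, P-selectin (chromosome 1, 163942833 to 163977595), was at 47.6, 50.2 and 55.4 CPM in CD8 and at 0.048, 0.117 and 0.41 in Th17 (8.30 ± 0.18, adjusted p = 5.75e-18). Itga4, an integrin chain that binds VCAM-1, was also higher in CD8 (3.16 ± 0.07). On the Th17 side stood Gpr15, a receptor that guides T cells to the large intestine (0.678 ± 0.204 against 63.8 ± 12.4 CPM, -6.53 ± 0.12). The glycosyltransferases Fut7 (-2.79 ± 0.12) and Gcnt1 (-3.49 ± 0.16), which build selectin ligands, were higher there as well.

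Of 10 killer lectin-like and NK receptor genes, 6 were higher in CD8 and 2 higher in Th17. Klrk1, which encodes NKG2D, was at 44.2 to 57.9 CPM in CD8 and 8.8 to 14.1 in Th17 (2.18 ± 0.08), and Klrd1, which encodes CD94, differed by 1.45 ± 0.11. Treg genes, included because Th17 and Treg cells both arise under TGF-beta, were higher in Th17 for 14 of 19 and higher in CD8 for 3. Foxp3 was at 26.2 to 36 CPM in Th17 and 1.5 to 5.02 in CD8 (-3.22 ± 0.15), with 282 CPM in the Treg libraries. Ikzf4 (-2.21 ± 0.08), Socs2 (-3.02 ± 0.06) and Lrrc32, the TGF-beta docking receptor GARP (-2.83 ± 0.16), followed, while Ikzf2, which encodes Helios, was not called (0.12 ± 0.12).

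Factors of naive, memory and exhausted cells were mixed. Among 14 naive and memory genes 8 were higher in CD8, and among 14 terminal effector and exhaustion factors also 8. Satb1, a chromatin organiser, was at 1157 to 1217 CPM in CD8 and 325 to 358 in Th17 (1.79 ± 0.05). Bach2 (-1.28 ± 0.05) and Foxo1 (-1.14 ± 0.05), factors that hold T cells in a resting state, were higher in Th17. Tox2 was at 14.4 ± 1.54 CPM in Th17 and 0.12 ± 0.154 in CD8 (-6.93 ± 0.31). Tcf7, which encodes TCF-1, overlapped between groups (-0.19 ± 0.05, adjusted p = 0.0761 with 24 libraries in the model and 0.575 with the WT number). Of 29 AP-1, NFAT, Egr and other immediate early genes, 12 were higher in CD8 and 13 higher in Th17, and with the WT number in the model 5 were called higher in Th17. Nr4a2, an orphan nuclear receptor induced by antigen receptor signals, was at 146 to 157 against 13.9 to 21.2 CPM (3.17 ± 0.07), and Batf3 differed by 2.83 ± 0.11.

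Glycolysis and lactate genes were all higher in CD8: 22 of 22, each with all 6 CD8 libraries above all 6 Th17 libraries, 9 past 2-fold, with a median of 0.99. Hk2, hexokinase 2, which commits glucose to glycolysis, was at 247, 274 and 286 CPM in CD8 and at 49.2, 59.1 and 62.8 in Th17 (2.23 ± 0.06, adjusted p = 6.69e-17). The glucose transporter Slc2a3 (2.04 ± 0.06), the lactate exporter Slc16a3 (1.97 ± 0.06), Tpi1 (1.71 ± 0.05) and Pgk1 (1.19 ± 0.06) were past 2-fold. Ldha (0.65 ± 0.06) and Pkm (0.91 ± 0.06), among the most abundant, were called without passing it. Hypoxia response genes were higher in CD8 for 12 of 19 and higher in Th17 for 4, with Bnip3 (2.46 ± 0.13) and Ak4 (1.96 ± 0.10) on one side and Egln3, an oxygen sensor, on the other (37.7 ± 2.6 against 117 ± 13.7 CPM, -1.63 ± 0.06).

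Nuclear genes of oxidative phosphorylation were close in level. The 95% interval of the difference lay within 0.5 of 0 for 19 of 20, although 9 were called higher in CD8, and the exception was Cycs, cytochrome c (0.57 ± 0.06). That count fell to 5 without WMS-75 and to 1 with the WT number. For comparison, the interval lay within 0.5 for 44.8% of all genes tested. Mitochondrially encoded genes had a median of 0.92 with 9 of 12 called, but the spread among libraries was wide: mt-Co1 was at 1371 to 2937 CPM in CD8 and 692 to 1881 in Th17. Without WMS-200 or WMS-76 the count of calls was 5, with the 4 compounds of Th17 WT number 1 it was 3, and with the WT number it was 2.

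Proliferation genes were also close, with 18 of 26 within 0.5. Of the called ones, 12 were higher in Th17 and 5 higher in CD8; the first count was 6 with the 4 compounds of Th17 WT number 1 and 4 with 24 libraries in the model. Mki67 overlapped between groups (327 to 460 against 454 to 672 CPM, -0.55 ± 0.07). Ccnd1, cyclin D1, stood out from the list at 38.4 ± 2.91 CPM in CD8 and 4.6 ± 0.531 in Th17 (3.06 ± 0.10). Integrated stress and amino acid genes were higher in CD8 for 16 of 25 and higher in Th17 for 3, with a median of 0.32. Of 20 apoptosis genes 11 were higher in CD8, among them Bcl2l11, which encodes the death activator BIM (1.22 ± 0.06), and 7 higher in Th17, with a median of 0.16. The count of 7 was 4 with the WT number, with the 4 compounds of Th17 WT number 1 and without WMS-75 and WMS-76. Cholesterol and fatty acid genes divided 9 to 10 of 27, and lysosome genes 4 to 12 of 21. Over all genes tested 28.1% were called each way, so the cholesterol and fatty acid counts lie near the background. With the WT number in the model, 6 cholesterol and fatty acid genes and 7 lysosome genes were called higher in Th17. The count over all genes tested also fell with that term, from 3965 to 2289 higher in Th17.

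Smaller groups added single genes with wide gaps. Among S100, annexin and galectin genes, S100a6 was higher in CD8 (1.93 ± 0.12) and Lgals3, galectin 3, higher in Th17 (35.8 ± 3.55 against 289 ± 34 CPM, -3.01 ± 0.08). Vim, the intermediate filament vimentin, from the same list, was at 290 to 378 CPM in CD8 and 1702 to 2334 in Th17 (-2.55 ± 0.08). Among retinoid genes the retinol transporter Stra6 (4.47 ± 0.17) and the carrier Crabp2 (2.43 ± 0.09) were higher in CD8, while the receptor gene Rara was higher in Th17 (29.8 ± 1.92 against 204 ± 14.9 CPM, -2.77 ± 0.05).

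Because the agonists target an opioid receptor, the opioid genes were examined as well. Oprk1, the kappa receptor gene, averaged 0.016 CPM in CD8 and had no count in Th17, below the level of 3 counts per library (0.14 to 0.192 CPM over the 12 libraries). Penk, which encodes proenkephalin, the precursor of opioid peptides (chromosome 4, 4133531 to 4138819), was at 506, 535 and 568 CPM in CD8 and at 13.6, 17 and 34.7 in Th17. The groups did not overlap and the difference was 4.86 ± 0.19 (adjusted p = 1.21e-06). Pomc was low in both (2.15 ± 0.562 against 1.21 ± 0.281 CPM, 0.83 ± 0.28), and its call was lost without WMS-64 (adjusted p = 0.0565) or WMS-76 (0.0562). The call was also lost with the WT number in the model (0.76, edgeR, adjusted p = 0.306) and without WMS-75 and WMS-76 together (0.59, adjusted p = 0.159).

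Outside the lists, the named genes were the 15 with the largest called difference each way among genes of at least 1 mean log2 CPM whose groups did not overlap. The widest on the Th17 side was Lhx6, a LIM homeobox transcription factor known from interneurons, at 75.4 to 95.3 CPM in Th17, with 5 counts in the 6 CD8 libraries (-10.77 ± 0.22). Olfm2 (149 ± 10 CPM in Th17, -9.04 ± 0.14) and Fbxo2 (-6.97 ± 0.12) came next. Aqp3, a channel for water and glycerol, was the most abundant of the 15, at 563 to 700 CPM in Th17 and 4.68 to 6.67 in CD8 (-6.77 ± 0.07, adjusted p = 6.6e-23). The others were Gcnt2, Emp1, Crispld2, Mical2, Aoc1, Syp, Dsp, Nav2, Nynrin, Tmem176a and Akr1c18, with differences from -6.47 to -5.17. Several are better known from other tissues: Syp encodes the synaptic vesicle protein synaptophysin and Dsp the desmosomal protein desmoplakin.

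On the CD8 side the widest was H2-Q10, a class I gene with close relatives (23.3 ± 2 against 0.241 ± 0.13 CPM, 6.52 ± 0.18), which is uncertain for that reason. Plac8 was at 92.4 to 134 CPM in CD8 and 0.821 to 2.64 in Th17 (6.08 ± 0.12). Sema3b, a secreted semaphorin, differed by 6.07 ± 0.20, and Plxnc1, a semaphorin receptor of another class, was at 98.7 ± 7.6 against 3.28 ± 0.11 CPM (4.91 ± 0.08). Tbkbp1, an adaptor of the kinase TBK1, had the highest CD8 level of the 15 at 139 to 167 CPM (4.90 ± 0.09). The remaining 10 were Ptpn14, Dlc1, Ramp3, Gucy1a1, Tmem159, Lum, Arhgef10l, Ermn, Ankrd33b and Mid1-ps1, between 5.71 and 4.69. The last is annotated as an unprocessed pseudogene and may share reads with its parent.

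The same genes were then read in Th1 and Treg libraries with a model of all 24 libraries, whose scaling factors differ slightly, so that CPM are given anew. These comparisons share the CD8 and Th17 libraries and are set side by side without a test between them. CD8 and Th17 differed in 47.1% of 15885 genes in this model, CD8 and Th1 in 16% (8.69% higher in CD8), Th17 and Th1 in 47.3%, CD8 and Treg in 78% and Th17 and Treg in 74.9%. Ribosomal protein genes took 1.66% to 2.87% of counts in Treg libraries, far below the other cell types, beside every Treg value here. Tbx21 was at 224 CPM in CD8, 202 in Th1, 28.7 in Treg and 9.74 in Th17. CD8 and Th1 were not told apart (0.16 ± 0.07, adjusted p = 0.12). Il12rb2 gave the same order (290, 255, 46.2 and 7.8 CPM), again with CD8 and Th1 not told apart (0.19 ± 0.10, adjusted p = 0.22).

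Gzmb and Prf1 were higher in CD8 than in Th1 as well. Gzmb was at 1913 CPM in CD8, 167 in Th17, 153 in Th1 and 4.36 in Treg, so that CD8 exceeded Th1 by 3.64 ± 0.16 while Th17 and Th1 were not told apart (0.09 ± 0.15, adjusted p = 0.65). Prf1 was at 71.1, 9.65, 7.95 and 0.521 CPM in the same order. Other granule genes were mixed. Srgn (709 and 767 CPM), Stx11 (78.3 and 74.8), Stxbp2 (83.4 and 90.9) and Gzma (0.847 and 0.807) lay close in CD8 and Th1. Nkg7 (421 and 202 CPM), Serpinb6b (598 and 395), Cst7 (122 and 85.2) and Gzmc (18.7 and 5.02) were higher in CD8 than in Th1, without overlap. Xcl1 was at 386 CPM in CD8, 46.7 in Th17, 26.6 in Th1 and 23.1 in Treg, and its Th17 and Th1 libraries did not overlap. Ifng (1369 in CD8, 592 in Th1) and Serpinb9 (553 and 313) were high in both type 1 cell types, and were also higher in CD8 without overlap. Penk was highest in Th1 (918 CPM), then CD8 (568), Treg (96.3) and Th17 (20.3).

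On the other side, Il17f and Il9 were high in Th17 libraries and near 0 elsewhere: Il17f was at 831 CPM in Th17 and 1.06 to 1.81 in the other 3, and Il9 at 145 against 0.057 to 0.088. Il17a was at 144 CPM in Th17, 16.1 in CD8, 13.8 in Th1 and 0.438 in Treg. Some genes higher in Th17 than in CD8 were also high in Treg. Tgfbr1 was at 369 CPM in Th17, 246 in Treg, 27.3 in CD8 and 26.9 in Th1. Nt5e (572 CPM in Treg, 357 in Th17) and Itgae (487 and 58.5) were higher in Treg than in Th17. Cyp1a1 was at 49.4 CPM in Th17, 3.44 in Th1, 2.11 in Treg and 0.712 in CD8.

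**Figure D4:**
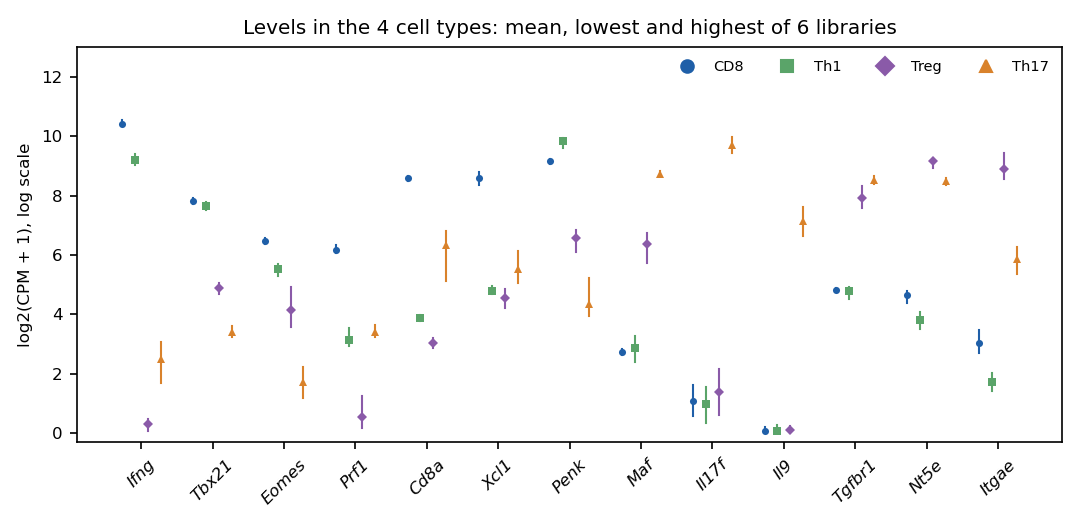
Levels of 13 genes in the 4 cell types on a log2(CPM + 1) scale (vertical axis); symbols mark the mean of 6 libraries and bars the lowest and highest. Tbx21 lies close in CD8 and Th1, Il17f and Il9 are near 0 outside Th17, and Tgfbr1 and Nt5e are high in Th17 and Treg.

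Whether the agonists changed the gap between CD8 and Th17 was asked with an interaction of cell type and agonist, the 5 agonists together against DMSO, on 8 residual degrees of freedom. With 1 DMSO library per cell type, that library was assumed to vary like the others. No gene was called (0 of 14105, 0%). An unadjusted p under 0.05 was found for 659, fewer than the 1 in 20 of genes tested that chance alone gives. DESeq2 called 8 genes and limma-voom 0 (545 at an unadjusted p under 0.05), and edgeR with no filter on low counts called 13. In Th17 the DMSO library is also the only one with WT number 2, so agonist and WT number cannot be told apart there.

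The nearest to a call was Penk (interaction 1.04 ± 0.17 on the log2 scale, adjusted p = 0.0983). Its 6 CD8 libraries lay between 506 and 568 CPM with DMSO inside that range, while in Th17 DMSO had 34.7 CPM and the 5 agonist libraries 13.6 to 17.7. Rnf157 (0.92 ± 0.16, adjusted p = 0.113) and Akap1, an anchor of protein kinase A on mitochondria (0.93 ± 0.17, adjusted p = 0.138), had the same shape: Akap1 was at 66.5 CPM in Th17 with DMSO and at 31.4 to 38.5 with the agonists, against 61.3 to 72.2 in CD8. Fasl (-1.83 ± 0.37, adjusted p = 0.334) and Spry1, a feedback inhibitor of growth factor signals (-0.80 ± 0.17, adjusted p = 0.427), went the other way, with Th17 DMSO lowest in both. For each of the 5 genes the Th17 library with DMSO lay outside the range of the 5 Th17 agonist libraries. The genes were chosen by an interaction p that rests on the DMSO libraries, so this is no separate evidence. None of these interactions passed the threshold in edgeR with the filter, and DESeq2 called all 5.

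**Figure D5:**
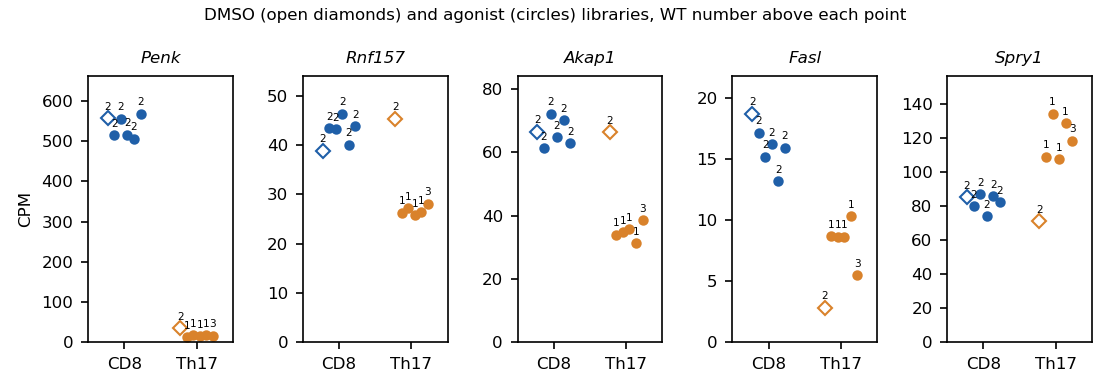
CPM (vertical axis, linear from 0) of the 5 genes with the smallest interaction p in each CD8 (blue) and Th17 (orange) library, DMSO as open diamonds and agonists as circles, with the WT number above each point. In Th17 the DMSO library, the only one with number 2, lies outside the range of the 5 agonist libraries for all 5 genes. The choice of the genes by an interaction p that rests on the DMSO libraries favours this.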

How the data were processed

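The authors deposited 1 table of unnormalized counts of reads by gene. The submitters' processing notes name fastp, HISAT2 and featureCounts. Not given in the sources used here are their versions, the build and annotation, the strand setting and how shared reads were treated, so gene positions follow the file. Each of the 24 count columns belongs to a labelled sample (0 extra columns). From the counts, genes passing filterByExpr of edgeR 4.0.16 (R 4.3.3) at a minimum count of 10 by cell type were kept, 14105 of 56748. Libraries were scaled by TMM. A robust quasi-likelihood model with terms for cell type and compound left 5 residual degrees of freedom, and the biological coefficient of variation was 0.0951. Adjustment was after Benjamini and Hochberg, and glmTreat gave the 2-fold call. Tests were checked on simulated counts that held no effect of compound or WT number, so that check does not bear on either. The interaction model left 8 and the 24-library model 15 residual degrees of freedom. DESeq2 1.42.0 and limma 3.58.1 served as alternatives.

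The compared libraries and gene lists were chosen with earlier results of these data known, so lists are described by counts and medians and carry no test. Named genes are list members, the 15 largest called differences each way outside the lists (mean log2 CPM of at least 1, groups without overlap, no unnamed gene models) and the 5 smallest interaction p. Some members are counted in their lists but not reported here by name. In depth, 3 counts per library correspond to 0.14 to 0.192 CPM, which covers counting error only. Same-compound libraries were not pairs by label: their deviations from the cell type means correlated from -0.106 to 0.308.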

Additional observations from a re-analysis of the deposited data

Results flagged for a closer look

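In each of 434 groups, the highest or lowest of the 6 libraries was compared with the rest by Dixon's ratio of the gap to the range. The 95% critical value was used. A group held the values of 1 gene, 1 library measure (total counts, ribosomal or mitochondrial share) or 1 summed marker list in 1 cell type. In 29 groups (6.68%), all of them genes, a library stood apart from the other 5, where chance alone gives about 1 in 20. All values are CPM, and no explanation was tested.

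The Th17 library with DMSO, the only Th17 library with WT number 2, accounted for 5 of them. Penk, Rnf157 and Akap1 of these are also among the genes with the smallest interaction p, which rests on that library, so they are no separate evidence that it stands apart. It was highest for Penk (34.73, others 13.62 to 17.73), Rnf157 (45.33, others 25.77 to 28.09) and Akap1 (66.48, others 31.43 to 38.53). It was lowest for Tiparp (44.73, others 56.27 to 62.22) and Gbp5 (22.48, others 30.49 to 34.74). Among the other Th17 libraries, WMS-200 was highest for Maf (432.0), WMS-75 for Ahr (177.4) and for Cxcl11 (0.04443, which is 1 count, with the others at 0), and WMS-76 for Ccl9 (4.95) and Slc16a3 (30.42).

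Of the CD8 libraries, WMS-64 accounted for 6. It was highest for Cd3d (272.6), Slc2a3 (110.5), Bnip3 (21.64) and S100a6 (230.3), and lowest for Cyp1b1 (0.3625) and Cd247 (124.9). The library with WMS-75 was highest for Il10 (2.63), Tgfb2 (10.1), Iigp1 (24.4) and Mid1-ps1 (39.02). With WMS-83, Hif1a (570.7), Il7r (132.8) and Smad3 (31.01) were lowest and Rara (33.34) was highest. WMS-200 was highest for Id2 (91.7), Mical2 (0.7098) and Lhx6 (0.2366, with the others at 0), and DMSO for Stx11 (83.44) and Ifngr2 (14.0). Among these genes the 2 cell types did not overlap, except for Cd3d, Cd247, Rnf157 and Akap1.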

How the results depend on the processing

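The calls were recomputed under other tools, scalings, filters, terms and sets of libraries, of which leaving out WMS-75 and WMS-76 together was chosen after seeing the data. With the WT number in place of the compound, 2269 genes were called higher and 2289 lower in CD8, and 492 were past 2-fold higher. Of the 7931 called genes 4438 stayed called, and 66 changed sign. Leaving out each compound in turn gave 3510 to 3826 genes higher and 3559 to 3949 lower, and 722 to 765 and 631 to 666 past 2-fold. With no replicate block, that is with the compound left out of the model, 3874 were higher and 3895 lower (784 and 658 past 2-fold). The compound term is a block by treatment, and same-compound libraries matched each other best for 3 of 6 compounds. Without WMS-75 and WMS-76, 3651 were higher and 3640 lower (747 and 629 past 2-fold). The interaction gave 13 genes with no filter on low counts and 8 with DESeq2, against 0 with edgeR, with limma-voom, with DESeq2's size factors and at a minimum count of 30; the cause was not tested. With no filter the median over all genes was 0.11.

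Of 208 named genes with a test, 187 kept their call and direction in every setting. Direction reversed only with the WT number, for Ccr7 (0.0147), Rnf157 (-0.0898), Akap1 (-0.00296) and Spry1 (0.21). Of the genes that were not called, 6 changed sign in some setting. Depth limits genes of a few counts, such as Cxcl11 in Th17 libraries.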
